A study of Mus musculus with 17 samples.

Results

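The late response of the Egr1 knockout uterus to estradiol (E2) was read from 4 of the 17 arrays of the study: 2 arrays labelled Egr1 KO and 24 h after E2, set against 2 arrays labelled Egr1 KO and 0 h. The arrays were chosen by these labels alone, and all 14737 measured genes were tested. Each array held total RNA of mouse uterine tissue with all its cell types. For comparison the report uses 2 arrays of KO uteri at 3 h and 2 at 6 h, 2 arrays of wild-type (WT) uteri at 24 h and 2 at 0 h. All KO arrays, those at 0 h included, carry the knockout label, and the first and second array of a group are called array 1 and array 2. The labels used here do not state the kind of Egr1 allele, the strain, the age, the E2 dose or any ovariectomy. They also do not say whether a group's arrays are separate animals. Unless a smaller fit is named, the p-values and standard errors (SE) come from a fit to all 17 arrays. That fit includes the WT uteri at 3 h and 6 h, which are not compared here. The p-values therefore speak of the spread within groups over all these arrays, and that spread may be technical. The SE of a gene can differ from the spread of the arrays shown for it.

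Egr1 itself, an immediate-early zinc-finger transcription factor and the disrupted gene, was measured by 1 probe, at 13.51 and 13.27 in the KO 24 h uteri, against 13.48 and 13.63 in the KO 0 h uteri. The KO groups overlapped, and the change of -0.16 ± 0.18 (SE, adjusted p = 0.549) did not pass the test. The WT arrays read 11.39 and 12.09 at WT 24 h, against 12.24 and 12.51 at WT 0 h, so the signal was not lower on the arrays labelled KO. Whether this probe reads a stretch that the knockout removes is not stated in the labels, so it checks no label, and KO and WT below stand for arrays labelled so.

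Estradiol acts on the uterus through its receptor ESR1, a ligand-dependent transcription factor of epithelium, stroma and muscle. In rodents the first hours bring immediate-early transcription and fluid uptake. The following day brings growth of the luminal and glandular epithelium, which copies its DNA, divides and builds up secretory protein. EGR1 is itself induced by estrogen early in that sequence, so the 24 h arrays show the late wave in tissue labelled as lacking it.

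The levels below are normalized log2 intensities, on which a difference of 1 is a 2-fold change. Across all genes, 45.7% passed the test between KO 24 h and KO 0 h, 22.5% higher and 23.1% lower (limma, adjusted p under 0.05). The arrays of the groups did not overlap for 73.4% of genes. A rise or a fall of at least 2-fold was called for 6.64% and one of at least 4-fold for 0.896%, that is 58 genes higher and 74 lower. The median SE of a gene's change was 0.078. Over all probes the KO 24 h arrays correlated at 0.997 with each other and the KO 0 h arrays at 0.993, against 0.945 to 0.949 between the groups. Markers of the tissue were present on all 4 arrays. The smooth muscle list had a mean level of 11.58 and 11.67 at KO 24 h and 11.75 and 11.57 at KO 0 h, and the epithelial list 10.69 and 10.58 at KO 24 h and 10.53 and 10.50 at KO 0 h. The 7 ovary and oviduct markers lay near the array median of 8.20, at 8.40 and 8.42 at KO 24 h and 8.54 and 8.58 at KO 0 h. A pair of arrays stood apart from their partners. These were the second KO 0 h array in immune markers and the first WT 0 h array in replication and other genes. At WT 0 h the list means were 9.43 and 8.79 for mitotic genes and 11.69 and 11.40 for proteasome genes. They were 10.56 and 10.14 for endoplasmic reticulum, 11.17 and 10.75 for fibrillar matrix and 9.37 and 9.04 for sterol genes. Not every list had this gap, with fatty acid genes at 10.92 and 10.99. The gap bears on the WT changes and interactions of the lists that have it. Values without these arrays are given beside many of the results they touch.

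The 15 largest rises were led by genes of DNA copying and cell division. Uhrf1, which carries DNA methylation over to new strands, stood at 13.31 and 13.20 in the KO 24 h uteri, against 9.59 and 9.96 in the KO 0 h uteri, a rise of 3.48 ± 0.48 (SE, adjusted p = 3.48e-05). Pbk, a mitotic kinase, stood at 12.03 and 11.85 at KO 24 h, against 8.55 and 9.11 at KO 0 h, a rise of 3.11 ± 0.40 (SE, adjusted p = 1.83e-05). Pclaf, a partner of the sliding clamp, stood at 11.74 and 11.69 at KO 24 h, against 8.53 and 8.88 at KO 0 h, a rise of 3.01 ± 0.38 (SE, adjusted p = 1.88e-05). For all 3 genes both 24 h arrays lay above both 0 h arrays, as the rule for naming them required. Their 0 h arrays differed more from each other than the 24 h arrays did. Also among the 15 were Tk1, Mcm5, Mcm10, Prc1, Fdps, the histone H2A genes H2ac22, H2ac12, H2ac7 and H2ac15, and the small proline-rich genes Sprr2g, Sprr2e and Sprr2f, with rises of 2.61 to 2.82. The H2A genes are near-identical copies, as are the Sprr2 genes, so their probes may share transcripts.

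**Figure D1:**
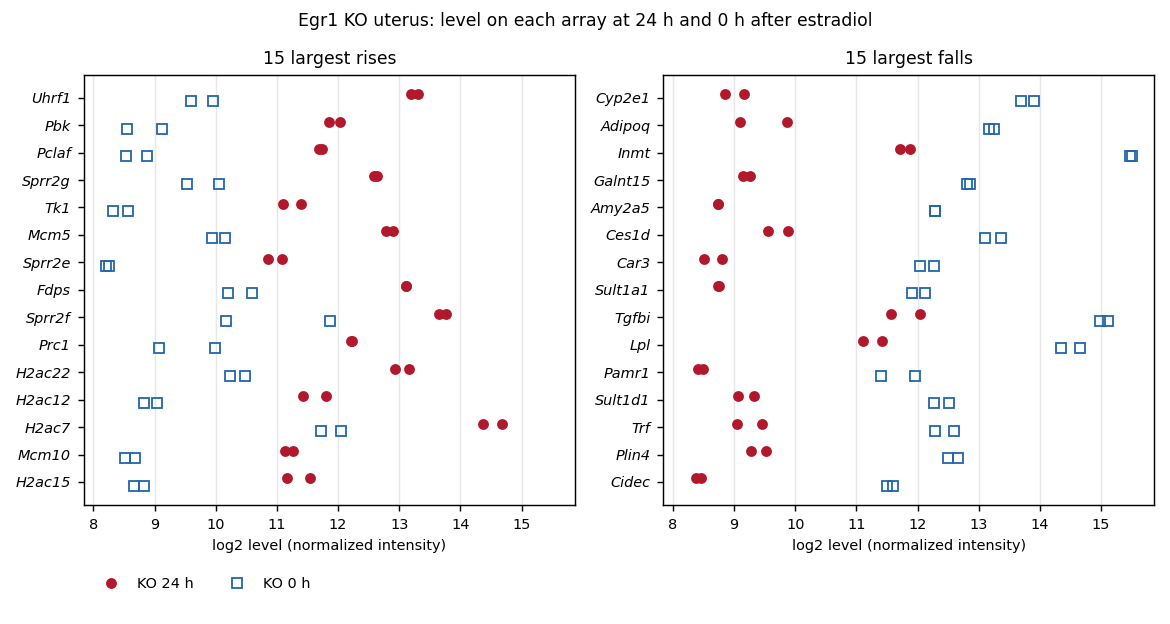
Normalized log2 level of the 15 genes with the largest rise (left) and the 15 with the largest fall (right), 1 point per array, filled circles for KO 24 h and open squares for KO 0 h. The groups do not overlap for any gene shown, as the rule for naming them required, and Sprr2f differs most between the KO 0 h arrays among the rises, at 10.16 and 11.87.

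Fat and detoxification genes led the 15 largest falls. Cyp2e1, a cytochrome P450 of solvent and fatty acid oxidation, stood at 8.85 and 9.16 in the KO 24 h uteri, against 13.69 and 13.90 in the KO 0 h uteri, a change of -4.79 ± 0.86 (SE, adjusted p = 3.44e-04). Inmt, an N-methyltransferase, was among the brightest probes of the table before E2, at 11.88 and 11.72 at KO 24 h, against 15.47 and 15.51 at KO 0 h (-3.69 ± 0.25 SE, adjusted p = 2.50e-07). Amy2a5, an amylase, stood at 8.73 and 8.74 at KO 24 h, against 12.28 and 12.28 at KO 0 h (-3.55 ± 0.29 SE, adjusted p = 6.88e-07). Galnt15, which starts O-linked glycans, stood at 9.25 and 9.15 at KO 24 h, against 12.86 and 12.81 at KO 0 h (-3.63 ± 0.30 SE, adjusted p = 8.38e-07). These genes were high on both 0 h arrays and far lower on both 24 h arrays, and the rule for naming them required that the groups not overlap. Adipoq, Ces1d, Car3, Sult1a1, Tgfbi, Lpl, Pamr1, Sult1d1, Trf, Plin4 and Cidec made up the rest, at -3.73 to -3.14. Another probe changed far less for Amy2a5 (-0.14), Lpl (-0.053) and Sult1d1 (0.003), and by -3.28 to -0.29 for the other probes of Galnt15 and -2.93 to -0.56 for those of Pamr1.

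Genes that license and open replication origins rose almost throughout. Of 19 measured members 18 rose and 0 fell, with a median change of 1.28, against -0.0031 over all genes. Mcm5, a subunit of the MCM2-7 replicative helicase, stood at 12.91 and 12.78 in the KO 24 h uteri, against 9.93 and 10.15 in the KO 0 h uteri, a rise of 2.80 ± 0.30 (SE, adjusted p = 4.69e-06). Mcm2 of the same ring stood at 11.20 and 10.97 at KO 24 h, against 8.95 and 9.03 at KO 0 h (2.09 ± 0.20 SE, adjusted p = 1.83e-06). Mcm7 stood at 10.58 and 10.53 at KO 24 h, against 9.47 and 9.38 at KO 0 h (1.13 ± 0.10 SE, adjusted p = 1.28e-06). Both 24 h arrays lay above both 0 h arrays for every one of these subunits, while 73.4% of all genes had no overlap, in either direction. The loading factors Cdc6 and Cdt1 rose by 2.25 and 1.63, the helicase activator Cdc45 by 1.57, and the GINS subunits Gins1 and Gins2 by 1.16 and 1.27. Gins4 changed less than these, at 0.53 ± 0.085 (SE, adjusted p = 1.35e-04). The other probe of Cdc6 changed by 0.053 and that of Mcm4 by 0.14, against 1.31 for the brighter one.

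The start-site windows of Mcm5 and Uhrf1 are shown because they hold the E2F word, a binding word of the E2F factors that switch on S-phase genes. The 250 bases before the RefSeq start (build GRCm38.p6) were searched on both strands for TTTCCCGC, TTTCGCGC, TTTGCCGC and TTTGGCGC, and capitals mark the words found.
Mcm5 (chr8:75109259-75109508, plus strand): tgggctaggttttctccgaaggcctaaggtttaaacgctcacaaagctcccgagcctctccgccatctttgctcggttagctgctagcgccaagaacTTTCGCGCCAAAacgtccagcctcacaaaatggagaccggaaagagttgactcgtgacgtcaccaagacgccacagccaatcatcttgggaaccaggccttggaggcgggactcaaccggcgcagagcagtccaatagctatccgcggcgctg
Uhrf1 (chr17:56304063-56304312, plus strand): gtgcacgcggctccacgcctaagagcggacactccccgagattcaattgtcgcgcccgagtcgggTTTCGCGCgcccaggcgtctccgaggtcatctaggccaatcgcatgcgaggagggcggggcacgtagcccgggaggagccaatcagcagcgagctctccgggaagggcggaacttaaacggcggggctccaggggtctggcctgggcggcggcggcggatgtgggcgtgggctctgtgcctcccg
In Mcm5 a forward and a reverse word overlap, so the capitals run on. A word was found in 6 of 15 licensing genes with a RefSeq window (40%), against 3.29% of the 11820 tested genes with a window. The share was 1 of 15 for the polymerase list and 0 of 21 for the mitotic list. It was 4 of 11 for the E2F and RB list (36.4%), 3 of 10 for the cohesin list (30%) and 3 of 12 for chromatin assembly (25%). A match describes these letters and no binding.

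The copying machinery rose with the helicase. All 18 of 18 polymerase and clamp genes rose, with a median of 0.97. Pcna, the sliding clamp, stood at 9.58 and 9.46 at KO 24 h, against 8.41 and 8.43 at KO 0 h, a rise of 1.10 ± 0.087 (SE, adjusted p = 5.60e-07). Fen1, the flap nuclease that trims Okazaki fragments, stood at 12.13 and 11.99 at KO 24 h, against 9.81 and 9.88 at KO 0 h, a rise of 2.22 ± 0.19 (SE, adjusted p = 8.66e-07), and the catalytic polymerase subunits Pole and Pold1 rose by 1.18 and 1.00. Every member of the nucleotide synthesis list rose too, 17 of 17 with a median of 1.03. Thymidylate synthase, Tyms, stood at 11.62 and 11.38 at KO 24 h, against 9.08 and 9.16 at KO 0 h (2.38 ± 0.21 SE, adjusted p = 1.12e-06), and the ribonucleotide reductase subunits Rrm1 and Rrm2 rose by 1.98 and 1.24. Purine and folate genes moved with them, Gart by 1.03 and Mthfd1 by 1.45. For the salvage kinase Tk1 the brightest probe rose by 2.80 and its other probes changed by 0.054 to 0.86, and for Tyms the other probes changed by 0.20 to 1.15.

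Chromatin assembly genes, which package new DNA, gave 12 rises and 0 falls among 14 members (median 1.04). The assembly factor subunit Chaf1b stood at 10.80 and 10.51 at KO 24 h, against 8.59 and 8.65 at KO 0 h (2.04 ± 0.20 SE, adjusted p = 2.39e-06). The maintenance methyltransferase Dnmt1 stood at 11.79 and 11.54 at KO 24 h, against 9.88 and 10.01 at KO 0 h (1.72 ± 0.17 SE, adjusted p = 2.72e-06). Both sit in the same list as Uhrf1, and the 24 h arrays were the higher for all of them. One histone gene went the other way: the linker histone H1f2 stood at 11.06 and 11.15 at KO 24 h, against 13.57 and 13.42 at KO 0 h, a change of -2.39 ± 0.19 (SE, adjusted p = 5.54e-07), which its other probe shared (-2.37).

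Regulators of the G1/S switch were mixed. Of 15 E2F and RB family genes 10 rose and 3 fell (median 0.61). The activator E2f1 stood at 10.89 and 10.78 at KO 24 h, against 8.67 and 8.92 at KO 0 h, a rise of 2.04 ± 0.22 (SE, adjusted p = 4.30e-06), and its partner Tfdp1 rose by 1.32. Foxm1, which drives late cell cycle genes, rose by 0.92. Among 22 cyclins, kinases and inhibitors 12 rose and 2 fell (median 0.20). Cdk4, the G1 kinase, stood at 11.69 and 11.70 at KO 24 h, against 10.28 and 10.19 at KO 0 h (1.46 ± 0.096 SE, adjusted p = 2.50e-07). Its partner Ccnd1 stood at 13.22 and 13.15 at KO 24 h, against 12.12 and 12.02 at KO 0 h (1.11 ± 0.10 SE, adjusted p = 1.49e-06). The inhibitor Cdkn1c (p57) stood at 11.25 and 11.24 at KO 24 h, against 13.27 and 13.16 at KO 0 h, a change of -1.97 ± 0.14 (SE, adjusted p = 3.07e-07). The other inhibitor named, Cdkn1b (p27), lay at 8.80 and 8.78 at KO 24 h, against 8.82 and 8.71 at KO 0 h, and its change of 0.023 ± 0.064 (SE, adjusted p = 0.833) did not pass.

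Mitotic genes formed the other large rising group. Of 26 kinases, motors and cytokinesis genes 23 rose and 1 fell, with a median of 1.31. Prc1, which bundles the central spindle, stood at 12.23 and 12.21 in the KO 24 h uteri, against 9.08 and 9.99 in the KO 0 h uteri, a rise of 2.69 ± 0.41 (SE, adjusted p = 8.02e-05). Aurkb, the kinase of the chromosomal passenger complex, stood at 10.38 and 10.39 at KO 24 h, against 8.34 and 8.48 at KO 0 h (1.98 ± 0.20 SE, adjusted p = 2.54e-06). Its partner Cdca8 stood at 10.99 and 10.88 at KO 24 h, against 8.66 and 8.96 at KO 0 h (2.13 ± 0.27 SE, adjusted p = 1.66e-05). The KO 0 h arrays differed from each other in Prc1 and less in the other genes, and both lay under the 24 h pair. Kif23, Anln and Pbk completed the members named, with rises of 2.16 to 3.11. Other probes of Kif23 changed by 0.18 to 1.57 and that of Anln by 0.28.

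The windows of Prc1 and Cdk1, the mitotic kinase, are shown for the CHR word (TTTGAA), the element through which the DREAM and MuvB complexes time late cell cycle genes, with the CCAAT word and, in Cdk1, the E2F word. Capitals mark these words on either strand, so CCAAT also appears as its reverse, ATTGG.
Prc1 (chr7:80294226-80294475, plus strand): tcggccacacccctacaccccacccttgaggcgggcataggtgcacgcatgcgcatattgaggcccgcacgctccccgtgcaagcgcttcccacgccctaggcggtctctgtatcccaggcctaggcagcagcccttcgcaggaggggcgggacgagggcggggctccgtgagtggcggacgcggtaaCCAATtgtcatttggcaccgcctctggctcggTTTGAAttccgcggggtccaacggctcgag
Cdk1 (chr10:69352913-69353162, minus strand): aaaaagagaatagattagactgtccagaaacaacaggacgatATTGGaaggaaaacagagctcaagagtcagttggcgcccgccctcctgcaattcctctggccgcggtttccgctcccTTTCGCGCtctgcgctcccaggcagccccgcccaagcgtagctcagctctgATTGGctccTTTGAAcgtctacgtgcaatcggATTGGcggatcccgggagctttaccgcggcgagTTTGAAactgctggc
In Prc1 the CHR word ends 25 bases before the start, and in Cdk1 a pair of CHR words end 66 and 10 bases before it. The CHR word stood in 9 of 21 mitotic windows (42.9%), in 2 of 18 kinetochore windows and in 14.1% of all windows. Among other cell cycle lists it stood in 6 of 10 cohesin and condensin windows (60%) and 4 of 11 E2F and RB windows (36.4%). For chromatin assembly it was 4 of 12 (33.3%), and for repair 1 of 14. CCAAT stood in 12 of 21 mitotic and 13 of 18 kinetochore windows, against 39.8% of all. Cdk1 stood at 10.73 and 10.81 at KO 24 h, against 8.53 and 8.81 at KO 0 h, a rise of 2.10 ± 0.25 (SE, adjusted p = 1.09e-05) on its brighter probe, while its other probe changed by -0.017.

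Kinetochore and chromosome-structure genes followed. Of 20 kinetochore and checkpoint genes 15 rose and 1 fell (median 0.67). The checkpoint protein Mad2l1 stood at 11.31 and 11.22 at KO 24 h, against 9.54 and 9.62 at KO 0 h (1.68 ± 0.24 SE, adjusted p = 4.13e-05). Sgo1, which guards centromeric cohesion, stood at 9.46 and 9.46 at KO 24 h, against 8.03 and 8.04 at KO 0 h (1.42 ± 0.12 SE, adjusted p = 7.83e-07). Of 13 cohesin, condensin and topoisomerase genes 8 rose and 1 fell (median 0.57). Top2a, which untangles sister chromatids, stood at 11.22 and 11.05 at KO 24 h, against 8.32 and 8.83 at KO 0 h (2.55 ± 0.33 SE, adjusted p = 1.96e-05, other probes 0.26 to 1.22). Esco2 stood at 10.29 and 10.08 at KO 24 h, against 8.30 and 8.38 at KO 0 h (1.84 ± 0.20 SE, adjusted p = 4.21e-06). Ncaph stood at 10.65 and 10.61 at KO 24 h, against 8.75 and 9.0 at KO 0 h (1.76 ± 0.17 SE, adjusted p = 1.74e-06). Thus the called members of these lists lay higher at 24 h with 1 exception in each.

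Repair genes that guard the fork rose, and p53 targets changed in both directions. Of 17 repair genes 15 rose and 0 fell (median 0.71). Rad54l, of homologous recombination, stood at 10.74 and 10.47 at KO 24 h, against 8.72 and 8.75 at KO 0 h (1.87 ± 0.15 SE, adjusted p = 6.48e-07). The uracil glycosylase Ung stood at 11.39 and 11.18 at KO 24 h, against 9.06 and 9.10 at KO 0 h (2.20 ± 0.20 SE, adjusted p = 1.48e-06, other probes 0.20 to 0.49). The fork genes Clspn and Timeless rose by 2.32 and 1.22, and the checkpoint kinase Chek1 by 0.38. The p53 target list gave 3 rises and 5 falls among 15 (median -0.071), where 22.5% of all genes were higher and 23.1% lower. Its largest increase was 0.61, and the members shown next are falls. Sesn1, a stress-induced inhibitor of growth signalling, stood at 10.57 and 10.50 at KO 24 h, against 12.55 and 12.55 at KO 0 h (-2.02 ± 0.12 SE, adjusted p = 2.12e-07). Trp53inp1 stood at 9.39 and 9.76 at KO 24 h, against 11.16 and 11.47 at KO 0 h (-1.74 ± 0.16 SE, adjusted p = 1.19e-06). The p53 antagonist Mdm2 stood at 10.58 and 10.66 at KO 24 h, against 11.27 and 11.31 at KO 0 h (-0.67 ± 0.081 SE, adjusted p = 1.20e-05). Other probes of Sesn1 changed by -1.76 to -0.40.

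Genes of protein synthesis rose apart from the ribosomal proteins. Of 24 ribosome biogenesis genes 20 rose and 0 fell (median 0.76). Nop56 and Nop58 are core proteins of the box C/D particles that guide methylation of ribosomal RNA. Nop56 stood at 10.97 and 11.16 at KO 24 h, against 9.83 and 9.84 at KO 0 h (1.23 ± 0.12 SE, adjusted p = 2.34e-06). Nop58 stood at 12.70 and 12.80 at KO 24 h, against 11.69 and 11.46 at KO 0 h (1.17 ± 0.15 SE, adjusted p = 2.48e-05). Rrp12 and Mrto4, assembly factors of the ribosomal subunits, rose by 1.32 and 1.25. Of 21 translation factors and tRNA synthetases 19 rose and 0 fell (median 0.64). Eif5a, the factor that carries hypusine, stood at 12.18 and 12.32 at KO 24 h, against 10.45 and 10.53 at KO 0 h (1.76 ± 0.18 SE, adjusted p = 3.25e-06). The methionyl-tRNA synthetase Mars1 stood at 10.75 and 10.95 at KO 24 h, against 9.75 and 9.68 at KO 0 h (1.14 ± 0.11 SE, adjusted p = 2.77e-06).

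Ribosomal protein genes gave 3 rises and 7 falls among 18 (median -0.12). Rpl22 stood at 12.19 and 12.05 at KO 24 h, against 13.51 and 13.42 at KO 0 h (-1.35 ± 0.12 SE, adjusted p = 9.41e-07). Rpl13a stood at 12.27 and 12.40 at KO 24 h, against 11.25 and 11.24 at KO 0 h (1.09 ± 0.16 SE, adjusted p = 4.91e-05). So members of 1 machine moved apart. The count of falls was 4 without the first KO 24 h array and 2 without the first KO 0 h array, and many of these genes have near-identical pseudogene copies.

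Protein folding and turnover genes rose with synthesis. Of 21 proteasome genes 20 rose (median 0.79). The catalytic subunit Psmb5 stood at 10.78 and 10.83 at KO 24 h, against 9.53 and 9.50 at KO 0 h (1.29 ± 0.091 SE, adjusted p = 2.99e-07). The lid deubiquitinase Psmd14 stood at 11.59 and 11.63 at KO 24 h, against 10.23 and 10.48 at KO 0 h (1.26 ± 0.15 SE, adjusted p = 8.43e-06). Of 18 chaperonins and heat shock genes 15 rose (median 0.84). Hspe1, the mitochondrial co-chaperonin, stood at 11.79 and 11.97 at KO 24 h, against 10.22 and 10.17 at KO 0 h (1.68 ± 0.15 SE, adjusted p = 1.18e-06). The HSP70-HSP90 adaptor Stip1 stood at 12.03 and 12.35 at KO 24 h, against 10.62 and 10.74 at KO 0 h (1.52 ± 0.10 SE, adjusted p = 2.57e-07). Of 21 endoplasmic reticulum genes 17 rose (median 0.69), and 11 rose without the second KO 24 h array. The lectin chaperone Calr stood at 10.71 and 10.96 at KO 24 h, against 9.02 and 9.17 at KO 0 h (1.74 ± 0.19 SE, adjusted p = 6.15e-06, other probe 0.12). Sdf2l1 stood at 10.23 and 10.99 at KO 24 h, against 8.67 and 8.96 at KO 0 h (1.80 ± 0.31 SE, adjusted p = 2.80e-04), with the second 24 h array the higher for both.

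Sterol synthesis genes rose in both genotypes. Of 17 genes 16 rose at KO 24 h (median 1.06) and 16 at WT 24 h (median 0.91), where 37.9% of all genes passed, 18.9% higher and the remaining 2801 genes lower. Fdps, which makes farnesyl diphosphate, stood at 13.11 and 13.11 in the KO 24 h uteri, against 10.21 and 10.59 in the KO 0 h uteri, a rise of 2.71 ± 0.32 (SE, adjusted p = 9.58e-06). The squalene epoxidase Sqle stood at 12.80 and 12.84 at KO 24 h, against 10.50 and 10.61 at KO 0 h (2.27 ± 0.22 SE, adjusted p = 2.28e-06). Cyp51, the lanosterol demethylase, stood at 11.51 and 11.62 at KO 24 h, against 9.25 and 9.32 at KO 0 h (2.28 ± 0.20 SE, adjusted p = 1.12e-06). The sterol oxidase Msmo1 stood at 12.08 and 11.95 at KO 24 h, against 9.96 and 9.91 at KO 0 h (2.08 ± 0.16 SE, adjusted p = 5.68e-07). The windows of the last 2 are shown because CCAAT, the word of factor NF-Y that works beside SREBP, stood in all 15 of 15 windows of this list, against 39.8% of all.
Msmo1 (chr8:64733579-64733828, minus strand): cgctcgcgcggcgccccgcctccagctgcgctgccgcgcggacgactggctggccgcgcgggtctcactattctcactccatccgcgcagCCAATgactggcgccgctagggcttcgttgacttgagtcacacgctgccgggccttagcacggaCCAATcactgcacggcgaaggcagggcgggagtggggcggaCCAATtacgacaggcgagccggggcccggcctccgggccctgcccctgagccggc
Cyp51 (chr5:4104698-4104947, minus strand): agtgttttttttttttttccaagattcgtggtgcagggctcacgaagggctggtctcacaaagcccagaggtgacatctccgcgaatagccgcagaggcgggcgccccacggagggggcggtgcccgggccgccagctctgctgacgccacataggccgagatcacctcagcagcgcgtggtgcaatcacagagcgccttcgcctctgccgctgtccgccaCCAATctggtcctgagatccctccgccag
Capitals mark the CCAAT word. The sterol response word searched, TCACNCCAC on both strands, stood in 0 of these windows and in 1.21% of all windows, which says only that these letters are not in this stretch.

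Genes of energy metabolism rose in most cases. Of 22 oxidative phosphorylation genes 19 rose and 1 fell (median 0.75). Cox5a of complex IV stood at 13.55 and 13.55 at KO 24 h, against 12.20 and 12.31 at KO 0 h (1.29 ± 0.15 SE, adjusted p = 6.75e-06). Cyc1 of complex III stood at 12.29 and 12.26 at KO 24 h, against 10.91 and 11.08 at KO 0 h (1.28 ± 0.096 SE, adjusted p = 4.09e-07). Of 16 glycolysis genes 11 rose and 2 fell (median 0.44). Gapdh stood at 13.56 and 13.49 at KO 24 h, against 12.31 and 12.40 at KO 0 h (1.17 ± 0.13 SE, adjusted p = 6.75e-06). Ldha stood at 13.56 and 13.54 at KO 24 h, against 12.29 and 12.59 at KO 0 h (1.11 ± 0.17 SE, adjusted p = 9.59e-05), so neither was a flat reference gene here. The neuronal-type glucose carrier Slc2a3 went down, at 9.84 and 9.84 at KO 24 h, against 10.70 and 10.69 at KO 0 h (-0.86 ± 0.25 SE, adjusted p = 0.0104). Of 13 fatty acid genes 7 rose and 2 fell (median 0.25). The elongase Elovl1 stood at 11.88 and 11.94 at KO 24 h, against 10.62 and 10.85 at KO 0 h (1.18 ± 0.11 SE, adjusted p = 1.94e-06). The lipogenic gene Thrsp stood at 8.66 and 8.78 at KO 24 h, against 9.76 and 9.92 at KO 0 h (-1.12 ± 0.28 SE, adjusted p = 0.0043).

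Polyamine genes rose, 9 of 13 with 1 fall (median 0.62). The rate-limiting decarboxylase Odc1 stood at 13.41 and 13.39 at KO 24 h, against 12.01 and 12.15 at KO 0 h (1.32 ± 0.16 SE, adjusted p = 9.46e-06). Spermidine synthase, Srm, stood at 11.94 and 12.13 at KO 24 h, against 10.07 and 10.10 at KO 0 h (1.95 ± 0.19 SE, adjusted p = 2.34e-06). Ckmt1, mitochondrial creatine kinase, stood at 12.79 and 12.58 at KO 24 h, against 10.31 and 10.66 at KO 0 h (2.20 ± 0.24 SE, adjusted p = 5.63e-06, other probe 0.50). Aoc1, which breaks down diamines, stood at 9.88 and 9.61 at KO 24 h, against 8.39 and 8.52 at KO 0 h (1.29 ± 0.14 SE, adjusted p = 5.79e-06), and its WT rise was larger, at 11.51 and 11.14 at WT 24 h, against 8.95 and 8.59 at WT 0 h (interaction -1.26, adjusted p = 0.00397).

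**Figure D2:**
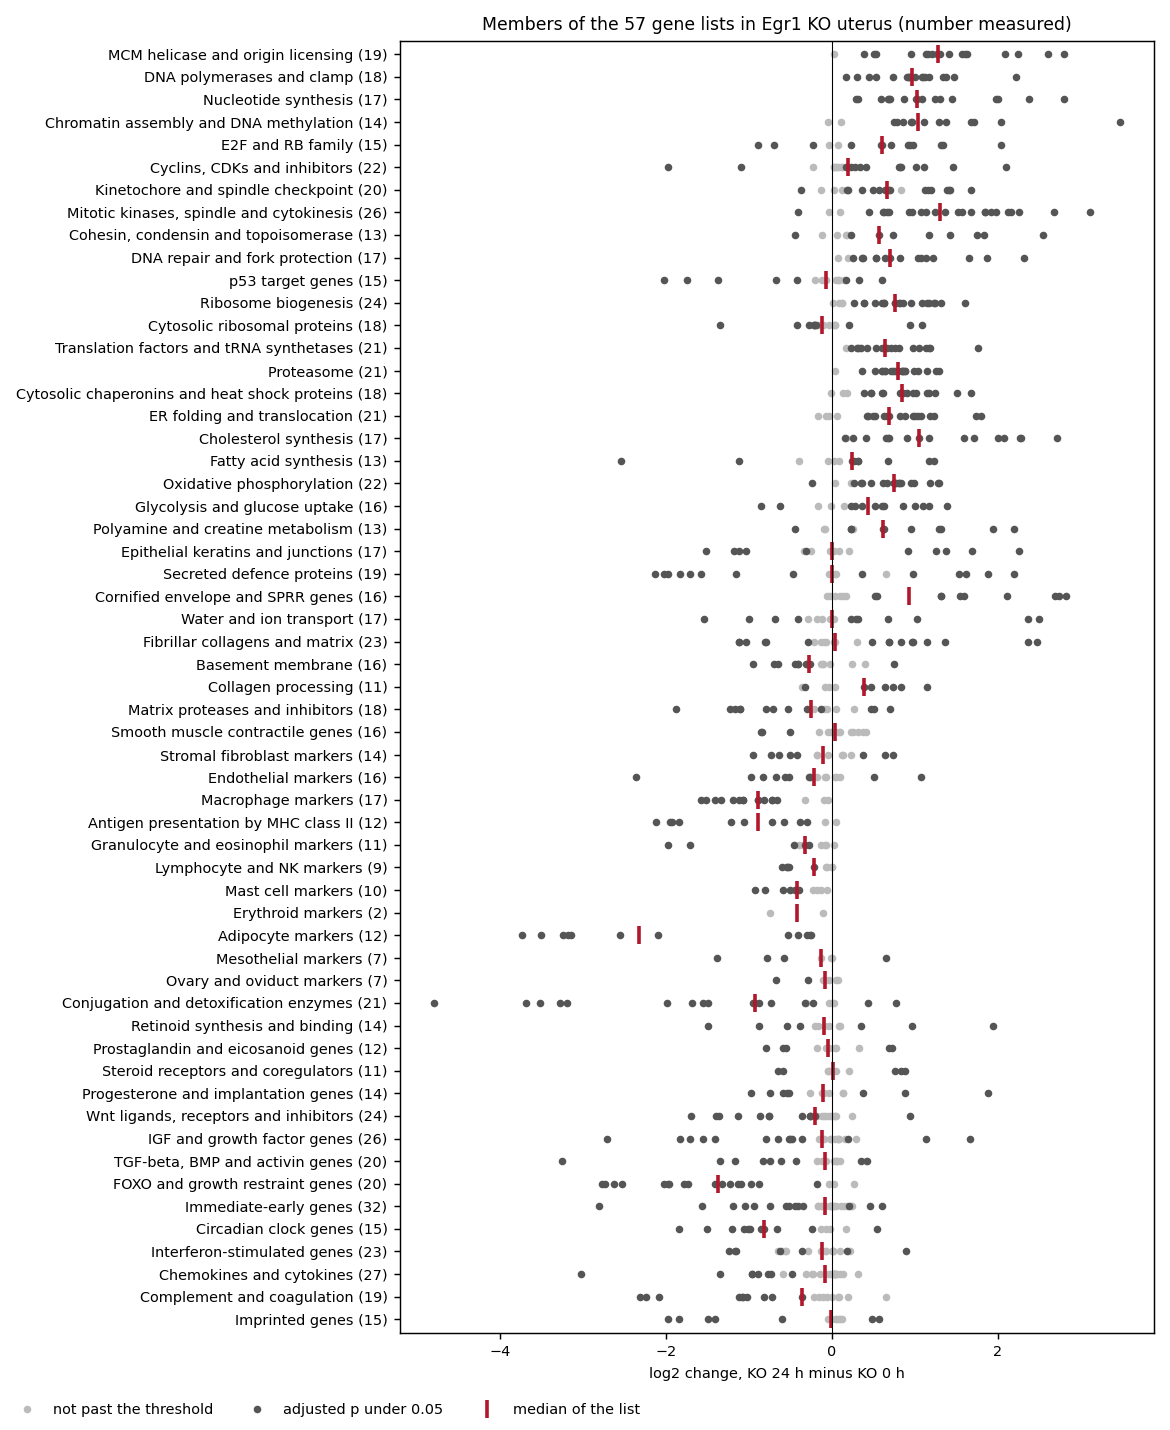
Log2 change, KO 24 h minus KO 0 h, of every measured member of the 57 gene lists, 1 point per gene (dark, adjusted p under 0.05; light, not), with the list median as a red bar and the number measured in brackets. Replication, mitosis, protein synthesis, folding and sterol lists lie to the right, and the adipocyte (median -2.32), FOXO (-1.37), conjugation (-0.92), macrophage (-0.89) and clock (-0.82) lists to the left.

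Epithelial genes changed in both directions. Of 17 keratin and junction genes 5 rose and 5 fell (median 0.01), near the 22.5% higher and 23.1% lower of all genes. The members with the largest changes follow. The simple-epithelium keratin Krt7 stood at 12.14 and 12.22 at KO 24 h, against 9.83 and 10.01 at KO 0 h (2.25 ± 0.14 SE, adjusted p = 2.45e-07). Krt19 stood at 11.37 and 11.34 at KO 24 h, against 9.96 and 10.001 at KO 0 h (1.38 ± 0.07 SE, adjusted p = 1.82e-07). Krt8 stood at 13.37 and 13.28 at KO 24 h, against 12.03 and 12.11 at KO 0 h (1.25 ± 0.096 SE, adjusted p = 4.89e-07). Of the tight-junction claudins, Cldn10 was lower, at 12.87 and 12.68 at KO 24 h, against 14.40 and 14.18 at KO 0 h (-1.51 ± 0.15 SE, adjusted p = 2.38e-06). Cldn4 stood at 8.92 and 8.77 at KO 24 h, against 9.94 and 10.11 at KO 0 h (-1.18 ± 0.13 SE, adjusted p = 4.90e-06). Cldn3 stood at 10.94 and 10.76 at KO 24 h, against 12.03 and 11.91 at KO 0 h (-1.12 ± 0.16 SE, adjusted p = 5.57e-05). The arrays did not overlap for any of these, as for 73.4% of all genes. Cdh1 and Epcam, which mark all epithelium, changed by 0.092 ± 0.071 (SE, adjusted p = 0.347) and 0.025 ± 0.048 (SE, adjusted p = 0.75) in KO, neither past the test. In whole tissue, fewer cells of a type and less RNA per cell cannot be told apart.

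Surface and secreted products rose in part. Of 16 cornified-envelope and SPRR genes 10 rose and 0 fell (median 0.94). Sprr2g, a cross-linked envelope protein, stood at 12.59 and 12.64 in the KO 24 h uteri, against 9.54 and 10.06 in the KO 0 h uteri (2.82 ± 0.20 SE, adjusted p = 3.60e-07). Sprr2e stood at 11.09 and 10.85 at KO 24 h, against 8.20 and 8.26 at KO 0 h (2.74 ± 0.10 SE, adjusted p = 8.07e-09). Sprr1a stood at 9.52 and 9.82 at KO 24 h, against 7.96 and 8.29 at KO 0 h (1.54 ± 0.16 SE, adjusted p = 3.20e-06). The deiminase Padi1, which converts arginine to citrulline, stood at 14.15 and 13.97 at KO 24 h, against 12.20 and 12.72 at KO 0 h (1.60 ± 0.23 SE, adjusted p = 5.70e-05). Of 19 secreted defence genes 6 rose and 8 fell, 5 falls without the first KO 24 h array, 5 without the second and 4 in a fit of the compared groups alone. The siderophore binder Lcn2 stood at 13.37 and 13.39 at KO 24 h, against 10.72 and 11.63 at KO 0 h (2.20 ± 0.34 SE, adjusted p = 8.63e-05). The membrane mucin Muc1 stood at 11.29 and 11.05 at KO 24 h, against 9.15 and 9.43 at KO 0 h (1.88 ± 0.17 SE, adjusted p = 1.06e-06). The lysozyme gene Lyz1 stood at 11.89 and 11.98 at KO 24 h, against 13.14 and 14.38 at KO 0 h (-1.83 ± 0.37 SE, adjusted p = 9.90e-04), with the second KO 0 h array the highest, and without that array its change was -1.21. The macrophage list was high on the same array, and its part in the defence genes was not tested.

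Among 17 water and ion transport genes 7 rose and 4 fell, 4 rises without the first KO 24 h array and 4 in a fit of the 8 KO arrays. Car12, a membrane carbonic anhydrase, stood at 12.48 and 12.42 at KO 24 h, against 9.49 and 10.41 at KO 0 h (2.50 ± 0.42 SE, adjusted p = 2.14e-04). The cytosolic Car2 stood at 12.67 and 12.52 at KO 24 h, against 10.17 and 10.29 at KO 0 h (2.37 ± 0.22 SE, adjusted p = 1.75e-06). Of the water channels, Aqp5 of glands stood at 9.61 and 9.70 at KO 24 h, against 8.63 and 8.62 at KO 0 h (1.03 ± 0.18 SE, adjusted p = 2.25e-04). Aqp1 of vessels stood at 12.31 and 12.18 at KO 24 h, against 13.80 and 13.77 at KO 0 h (-1.54 ± 0.20 SE, adjusted p = 1.83e-05). The channels thus changed in opposite directions.

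Matrix genes moved both ways, with collagen chains among the rises. Of 23 members 10 rose and 6 fell (median 0.036), with 6 rises without the second KO 24 h array and 6 without the first KO 0 h array. Col1a1 stood at 12.96 and 13.50 at KO 24 h, against 10.57 and 11.16 at KO 0 h (2.37 ± 0.50 SE, adjusted p = 0.00125). Col1a2 stood at 10.94 and 11.31 at KO 24 h, against 9.73 and 9.77 at KO 0 h (1.37 ± 0.30 SE, adjusted p = 0.00181). Col6a2 stood at 13.08 and 13.24 at KO 24 h, against 10.42 and 10.94 at KO 0 h (2.48 ± 0.33 SE, adjusted p = 2.79e-05). The small proteoglycan Dcn stood at 13.90 and 14.01 at KO 24 h, against 15.06 and 15.08 at KO 0 h (-1.11 ± 0.099 SE, adjusted p = 1.13e-06). The matricellular Thbs2 stood at 8.77 and 8.77 at KO 24 h, against 10.03 and 9.75 at KO 0 h (-1.12 ± 0.16 SE, adjusted p = 5.28e-05), both lower on each 24 h array. Collagen processing gave 6 rises among 11, and 2 without the second KO 24 h array, 2 without the first KO 0 h array and 3 without the second. The collagen chaperone Serpinh1 stood at 14.99 and 15.18 at KO 24 h, against 13.91 and 13.95 at KO 0 h (1.15 ± 0.17 SE, adjusted p = 8.31e-05).

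Basement membrane genes mostly went down, 9 of 16 with 1 rise (median -0.28). The laminin subunit Lamb2 stood at 10.77 and 10.78 at KO 24 h, against 11.73 and 11.71 at KO 0 h (-0.94 ± 0.11 SE, adjusted p = 1.16e-05). Col4a5 stood at 10.73 and 10.70 at KO 24 h, against 11.43 and 11.40 at KO 0 h (-0.70 ± 0.11 SE, adjusted p = 1.34e-04). Of 18 proteases and inhibitors 3 rose and 10 fell (median -0.25). The metalloprotease inhibitor Timp3 stood at 11.48 and 11.49 at KO 24 h, against 13.42 and 13.29 at KO 0 h (-1.87 ± 0.13 SE, adjusted p = 3.15e-07, other probes -0.30 to -0.022). Its relative Timp2 stood at 12.55 and 12.67 at KO 24 h, against 13.70 and 13.75 at KO 0 h (-1.11 ± 0.12 SE, adjusted p = 5.32e-06). The stromelysin Mmp10 stood at 8.32 and 8.33 at KO 24 h, against 9.77 and 9.31 at KO 0 h (-1.22 ± 0.16 SE, adjusted p = 2.03e-05), so inhibitors and proteases lay lower together.

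Few muscle genes passed, and vessel markers were more often lower than higher. The smooth muscle list gave 0 rises and 3 falls among 16 (median 0.041), with Actg2 at 13.92 and 13.99 at KO 24 h, against 13.74 and 13.40 at KO 0 h, a change of 0.38 ± 0.17 (SE, adjusted p = 0.0921) that did not pass. The other probes of the named falls Synm and Smtn ranged over -0.67 to -0.033 and -0.90 to 0.026, against -0.85 and -0.84. Stromal markers gave 3 rises and 5 falls among 14 (3 falls without the first KO 24 h array and 3 without the second KO 0 h array), including Cd34, at 10.42 and 10.52 at KO 24 h, against 9.73 and 9.92 at KO 0 h (0.65 ± 0.089 SE, adjusted p = 3.69e-05). Pi16 stood at 9.25 and 9.24 at KO 24 h, against 9.92 and 10.03 at KO 0 h (-0.73 ± 0.16 SE, adjusted p = 0.0015), both markers of adventitial fibroblasts. Endothelial markers gave 2 rises and 8 falls among 16 (median -0.22). The endothelial claudin Cldn5 stood at 9.65 and 9.35 at KO 24 h, against 11.92 and 11.79 at KO 0 h (-2.35 ± 0.18 SE, adjusted p = 4.79e-07). The cadherin Cdh5 stood at 10.08 and 10.14 at KO 24 h, against 10.81 and 10.75 at KO 0 h (-0.67 ± 0.076 SE, adjusted p = 7.05e-06). Plvap, of fenestrated vessels, stood at 11.15 and 11.08 at KO 24 h, against 9.72 and 10.35 at KO 0 h (1.08 ± 0.20 SE, adjusted p = 3.84e-04). Plvap thus differed in direction from the junction genes of the same cells.

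Immune markers were lower at 24 h, and 1 of the KO 0 h arrays stood above the other. Of 17 macrophage markers 14 fell and 0 rose (median -0.89). Their mean level was 8.89 and 9.03 at KO 24 h, against 9.50 and 10.24 at KO 0 h, where the second array is the high one. Without it 7 fell with a median of -0.45, and without the first KO 24 h array, as in a fit of the 8 KO arrays alone, 8 fell. Cd163, a scavenger receptor of resident macrophages, stood at 8.19 and 8.21 at KO 24 h, against 9.63 and 9.81 at KO 0 h (-1.52 ± 0.29 SE, adjusted p = 5.31e-04). The endotoxin co-receptor Cd14 stood at 9.60 and 9.84 at KO 24 h, against 10.79 and 11.03 at KO 0 h (-1.19 ± 0.17 SE, adjusted p = 4.43e-05). For these 2 genes the KO 0 h arrays were close.

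Class II presentation followed the macrophage list. Of 12 members 10 fell (median -0.89), and the mean level was 9.09 and 9.16 at KO 24 h and 9.96 and 10.31 at KO 0 h. The class II chain H2-Ab1 stood at 10.89 and 11.14 at KO 24 h, against 12.69 and 13.55 at KO 0 h (-2.11 ± 0.33 SE, adjusted p = 1.14e-04). Its invariant chain Cd74 stood at 10.72 and 10.93 at KO 24 h, against 12.40 and 13.14 at KO 0 h (-1.95 ± 0.35 SE, adjusted p = 3.74e-04). Both KO 0 h arrays were above both KO 24 h arrays, while 73.4% of all genes had no overlap, in either direction. Without the second KO 0 h array 8 members fell (median -0.67), with H2-Ab1 at -1.68, adjusted p = 0.00234, and Cd74 at -1.58, adjusted p = 0.00727. Granulocyte markers gave 5 falls among 11, 2 without the second KO 0 h array and 1 without the first KO 24 h array or 1 without the second. S100a8, a neutrophil alarmin, read 8.0 and 8.01 in the KO 24 h uteri, against 8.35 and 11.61 in the KO 0 h uteri, so its change of -1.97 ± 0.63 (SE, adjusted p = 0.0193) rests on the second 0 h array. Without that array it was -0.34, and the call did not hold on leaving out either array 1 of KO 24 h (-1.97, adjusted p = 0.0731) or array 2 of KO 24 h (-1.98, adjusted p = 0.0736). Lymphocyte markers gave 5 falls among 9, and 0 without the second KO 0 h array, 1 without the first KO 24 h array and 3 without the second. Mast cell markers gave 6 falls among 10, the histamine-forming enzyme Hdc at 11.84 and 11.96 at KO 24 h, against 12.81 and 12.84 at KO 0 h (-0.93 ± 0.24 SE, adjusted p = 0.0055). Gata2, which stroma shares, stood at 12.85 and 12.70 at KO 24 h, against 13.45 and 13.29 at KO 0 h (-0.59 ± 0.10 SE, adjusted p = 2.40e-04).

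**Figure D3:**
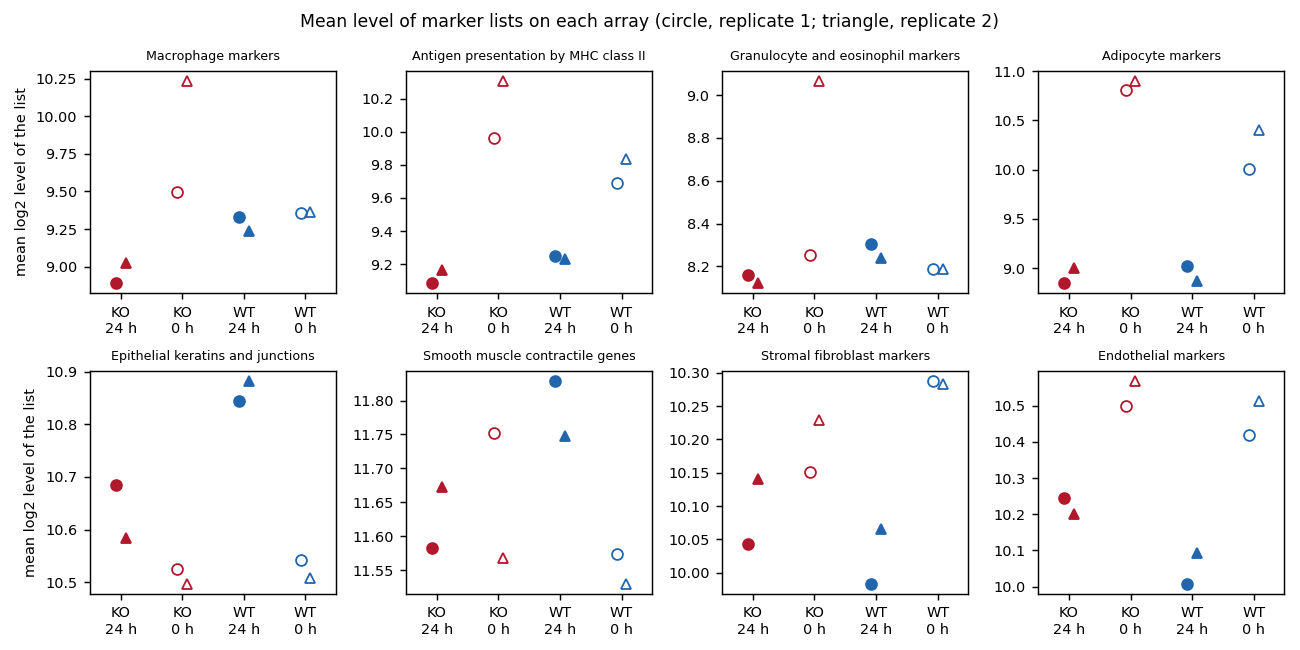
Mean log2 level of 8 marker lists on each array, KO in red and WT in blue, filled for 24 h and open for 0 h, circles for replicate 1 and triangles for replicate 2. The second KO 0 h array stands high in the macrophage list (9.50 and 10.24 at KO 0 h) and the granulocyte list (8.25 and 9.07), and all 4 arrays of 24 h lie under all 4 of 0 h in the adipocyte list.

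Complement genes were more often lower than higher, and the interferon list had falls at about the share of all genes (23.1%). Of 19 complement and coagulation genes 10 fell (median -0.36), and 6 without the second KO 0 h array (median -0.19). The component C2 stood at 9.29 and 9.36 at KO 24 h, against 11.32 and 11.94 at KO 0 h (-2.31 ± 0.20 SE, adjusted p = 1.12e-06). The C1 inhibitor Serping1 stood at 10.79 and 10.87 at KO 24 h, against 12.89 and 13.25 at KO 0 h (-2.24 ± 0.18 SE, adjusted p = 6.79e-07). Both were lower on each 24 h array. Interferon-stimulated genes gave 2 rises and 5 falls among 23, 2 falls without the second KO 24 h array or 2 without the second KO 0 h array, 3 without the first KO 24 h array and 9 in a fit of the compared groups alone. Rsad2 stood at 8.53 and 8.65 at KO 24 h, against 9.67 and 9.83 at KO 0 h (-1.16 ± 0.20 SE, adjusted p = 2.05e-04). The tethering protein Bst2 stood at 9.69 and 10.20 at KO 24 h, against 8.96 and 9.14 at KO 0 h (0.89 ± 0.18 SE, adjusted p = 9.88e-04). The chemokine list gave 8 falls and 0 rises among 27 (median -0.081). Ccl21a, which draws CCR7-bearing cells to lymphatic vessels, stood at 10.67 and 9.96 in the KO 24 h uteri, against 13.32 and 13.36 in the KO 0 h uteri (-3.02 ± 0.21 SE, adjusted p = 3.07e-07). Cx3cl1 stood at 9.45 and 9.24 at KO 24 h, against 10.24 and 10.23 at KO 0 h (-0.89 ± 0.084 SE, adjusted p = 1.72e-06).

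Adipocyte genes gave the largest median fall of the 57 lists. All 12 of 12 fell (median -2.32), and 7 of 7 under a stricter filter on dim probes. Their mean level was 8.85 and 9.0 at KO 24 h, against 10.81 and 10.90 at KO 0 h. The adipokine Adipoq stood at 9.10 and 9.86 in the KO 24 h uteri, against 13.16 and 13.26 in the KO 0 h uteri, a change of -3.73 ± 0.73 (SE, adjusted p = 7.11e-04). Lep stood at 8.56 and 8.75 at KO 24 h, against 11.31 and 11.11 at KO 0 h (-2.55 ± 0.37 SE, adjusted p = 6.09e-05). The lipid droplet gene Cidec stood at 8.37 and 8.45 at KO 24 h, against 11.50 and 11.61 at KO 0 h (-3.14 ± 0.43 SE, adjusted p = 3.17e-05). The WT list moved the same way, at 9.03 and 8.86 at 24 h and 10.005 and 10.41 at 0 h. At KO 6 h it stood at 8.85 and 9.89, so the arrays of that group differed by more than the arrays of the others named here. Whether the amount of fat in the samples had a part in this was not tested. The 7 mesothelial markers gave 1 rise and 3 falls, with Upk1b at 8.88 and 8.83 at KO 24 h, against 10.07 and 10.39 at KO 0 h (-1.38 ± 0.17 SE, adjusted p = 1.16e-05).

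Conjugation and detoxification enzymes were mostly lower. Of 21 members 15 fell and 2 rose (median -0.92). Ces1d, a carboxylesterase found in fat and liver, stood at 9.88 and 9.55 at KO 24 h, against 13.36 and 13.10 at KO 0 h (-3.52 ± 0.34 SE, adjusted p = 2.13e-06). The phenol sulfotransferase Sult1a1 stood at 8.73 and 8.75 at KO 24 h, against 11.91 and 12.12 at KO 0 h (-3.27 ± 0.36 SE, adjusted p = 5.61e-06). Cyp1b1, which hydroxylates estradiol, stood at 8.47 and 8.26 at KO 24 h, against 9.84 and 10.26 at KO 0 h (-1.68 ± 0.15 SE, adjusted p = 1.03e-06). Gsta3, a glutathione transferase, stood at 8.62 and 8.70 at KO 24 h, against 10.61 and 10.67 at KO 0 h (-1.98 ± 0.35 SE, adjusted p = 3.05e-04), while the WT arrays read 10.35 and 9.92 at WT 24 h, against 9.61 and 9.99 at WT 0 h. The adipocyte list fell in the same samples, and its part in these falls was not tested.

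Growth-restraint genes, many of them targets of FOXO factors, were mostly lower. Of 20 FOXO and growth restraint genes 17 fell and 0 rose (median -1.37). Txnip, which restrains glucose uptake, stood at 12.46 and 12.36 in the KO 24 h uteri, against 15.14 and 15.14 in the KO 0 h uteri (-2.73 ± 0.23 SE, adjusted p = 9.01e-07). Klhl24 stood at 10.09 and 9.74 at KO 24 h, against 12.46 and 12.42 at KO 0 h (-2.53 ± 0.25 SE, adjusted p = 2.15e-06). Ypel3 stood at 11.61 and 11.45 at KO 24 h, against 14.36 and 14.24 at KO 0 h (-2.77 ± 0.28 SE, adjusted p = 3.01e-06, other probe -0.22). Tsc22d3, a glucocorticoid-induced leucine zipper, stood at 11.26 and 11.07 at KO 24 h, against 13.80 and 13.79 at KO 0 h (-2.63 ± 0.24 SE, adjusted p = 1.33e-06, other probes -1.34 to -0.17). All 4 were bright on both 0 h arrays and several-fold dimmer on both 24 h arrays. Clock genes fell too, 10 of 15 with 1 rise (median -0.82). The repressor Per1 stood at 9.49 and 9.56 at KO 24 h, against 11.39 and 11.34 at KO 0 h (-1.84 ± 0.15 SE, adjusted p = 7.59e-07). The nuclear receptor Rora stood at 8.84 and 8.85 at KO 24 h, against 10.04 and 10.04 at KO 0 h (-1.20 ± 0.14 SE, adjusted p = 7.96e-06). The output gene Dbp stood at 12.82 and 12.81 at KO 24 h, against 13.89 and 13.84 at KO 0 h (-1.05 ± 0.22 SE, adjusted p = 0.00123). The labels used here do not give the hour of the day at collection.

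Growth factor and Wnt genes were more often lower than higher. Of 26 growth factor genes 3 rose and 11 fell (median -0.12). Igf1, a stromal mitogen for the epithelium, stood at 12.66 and 12.86 at KO 24 h, against 11.07 and 11.11 at KO 0 h (1.67 ± 0.30 SE, adjusted p = 3.36e-04). Its binding protein Igfbp3 stood at 9.86 and 9.65 at KO 24 h, against 12.48 and 12.46 at KO 0 h (-2.71 ± 0.20 SE, adjusted p = 3.60e-07). Igfbp6 stood at 9.87 and 10.002 at KO 24 h, against 11.46 and 11.52 at KO 0 h (-1.55 ± 0.14 SE, adjusted p = 1.37e-06). The related ligand Igf2 was lower, at 10.44 and 10.46 at KO 24 h, against 11.73 and 11.98 at KO 0 h (-1.41 ± 0.18 SE, adjusted p = 1.72e-05). Another binding protein, Igfbp4, stood at 13.19 and 13.22 at KO 24 h, against 12.84 and 12.99 at KO 0 h, a change of 0.29 ± 0.12 (SE, adjusted p = 0.0548) that did not pass. So Igf1 was higher and Igfbp3 and Igfbp6 were lower on each 24 h array. Of 24 Wnt genes 1 rose and 11 fell (median -0.20). Wnt5a, the rise, stood at 12.71 and 12.85 at KO 24 h, against 11.83 and 11.83 at KO 0 h (0.95 ± 0.13 SE, adjusted p = 3.43e-05). The agonist Rspo3 stood at 10.39 and 10.43 at KO 24 h, against 12.14 and 12.07 at KO 0 h (-1.70 ± 0.12 SE, adjusted p = 3.04e-07). The secreted inhibitor Sfrp2 stood at 9.48 and 9.41 at KO 24 h, against 10.98 and 10.62 at KO 0 h (-1.36 ± 0.12 SE, adjusted p = 1.08e-06), so agonist and inhibitor were lower together.

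In the TGF-beta family 2 genes rose and 7 fell among 20 (median -0.08). The matrix protein Tgfbi, a target of this pathway, stood at 12.03 and 11.56 at KO 24 h, against 15.12 and 14.98 at KO 0 h (-3.25 ± 0.20 SE, adjusted p = 2.41e-07). The BMP target Id3 stood at 9.39 and 9.25 at KO 24 h, against 9.96 and 9.90 at KO 0 h (-0.61 ± 0.12 SE, adjusted p = 5.98e-04). Among 32 immediate-early genes 3 rose and 11 fell against 0 h (median -0.085). Ccn2, a matricellular growth factor, stood at 10.08 and 10.15 at KO 24 h, against 12.88 and 12.95 at KO 0 h (-2.80 ± 0.18 SE, adjusted p = 2.45e-07). Jun stood at 9.0 and 8.98 at KO 24 h, against 9.98 and 9.87 at KO 0 h (-0.93 ± 0.13 SE, adjusted p = 5.60e-05). The phosphatase Dusp1 stood at 10.52 and 10.36 at KO 24 h, against 11.49 and 11.47 at KO 0 h (-1.04 ± 0.14 SE, adjusted p = 3.77e-05). These genes were therefore under their starting level a day after E2. The words of EGR1 itself, GCGTGGGCG and GCGGGGGCG on both strands, stood in 8 of 26 immediate-early windows (30.8%), against 5.86% of all windows, and in 0 of 15 licensing and 0 of 18 conjugation windows. The share was not particular to that list, with 5 of 15 Wnt (33.3%), 3 of 13 matrix protease (23.1%) and 3 of 14 ribosomal protein windows (21.4%). These shares describe letters and not binding.

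Receptor and progesterone lists held changes in both directions, with Muc1, described above, the largest of the progesterone list (1.88). The counts of the receptor, retinoid and prostaglandin lists below lay near the 22.5% higher and 23.1% lower of all genes. Pgr, the progesterone receptor, stood at 9.98 and 10.12 at KO 24 h, against 9.23 and 9.11 at KO 0 h (0.88 ± 0.14 SE, adjusted p = 1.21e-04). Its chaperone Fkbp4 stood at 13.40 and 13.43 at KO 24 h, against 12.54 and 12.61 at KO 0 h (0.84 ± 0.064 SE, adjusted p = 4.66e-07). Esr1 stood at 11.33 and 11.59 at KO 24 h, against 10.85 and 10.54 at KO 0 h (0.76 ± 0.17 SE, adjusted p = 0.00234, other probes 0.16 to 0.21). Fkbp5, a glucocorticoid target, stood at 8.74 and 8.78 at KO 24 h, against 9.33 and 9.49 at KO 0 h (-0.65 ± 0.14 SE, adjusted p = 0.00117). Of 11 receptor genes 3 rose and 2 fell, and of 14 progesterone genes 3 rose and 5 fell, with 3 falls when any 1 of the 4 KO arrays was left out. The retinoid list gave 3 rises and 4 falls among 14. Crabp1, a retinoic acid binder, stood at 10.48 and 10.44 at KO 24 h, against 8.48 and 8.54 at KO 0 h (1.95 ± 0.20 SE, adjusted p = 3.77e-06). The retinaldehyde dehydrogenase Aldh1a2 stood at 9.57 and 9.81 at KO 24 h, against 8.81 and 8.63 at KO 0 h (0.97 ± 0.16 SE, adjusted p = 1.96e-04). Its relative Aldh1a3 stood at 8.35 and 8.18 at KO 24 h, against 9.75 and 9.75 at KO 0 h (-1.49 ± 0.11 SE, adjusted p = 3.60e-07). The synthesis genes thus differed in direction. The prostaglandin list gave 2 rises and 3 falls among 12, led by the degrading enzyme Hpgd, at 9.65 and 9.81 at KO 24 h, against 10.51 and 10.53 at KO 0 h (-0.79 ± 0.092 SE, adjusted p = 8.84e-06). Of 15 imprinted genes 2 rose and 5 fell. Dlk1, a preadipocyte factor, stood at 10.17 and 9.72 at KO 24 h, against 11.64 and 11.92 at KO 0 h (-1.84 ± 0.46 SE, adjusted p = 0.00415), while WT lay near the array median, at 8.14 and 8.07 at WT 24 h, against 8.19 and 8.27 at WT 0 h.

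Whether KO and WT responded alike was tested with an interaction, the KO change minus the WT change, with no array on both sides. It passed for 7.27% of genes, 4.12% higher and 3.15% lower. Most often the KO change was the larger of a pair with equal sign and itself called, in 564 genes (3.83% of all). In 134 (0.909%) it was the smaller, and in 373 (2.53%) the signs were opposite. Of all genes whose interaction passed, whatever the signs, 177 had no called KO change (1.20% of all genes tested). Called changes of opposite direction in the 2 genotypes numbered 69 (0.468%), counted whether or not the interaction passed. The interaction leans on single arrays more than the KO change does. The total was 375 to 2258 when each of the 8 arrays was left out in turn.

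Replication genes were the main group with a higher interaction. It passed for 13 of 19 licensing genes, all higher, and for 14 of 18 polymerase genes, against 4.12% of all genes. Mcm5 read 12.91 and 12.78 at KO 24 h, against 9.93 and 10.15 at KO 0 h, and 12.18 and 11.87 at WT 24 h, against 11.72 and 10.44 at WT 0 h. Its KO change exceeded the WT change by 1.86 ± 0.43 (SE, adjusted p = 0.0205), with an interval of 0.94 to 2.78 (95%). The WT 0 h arrays differ from each other here, and the first is the high one. The Mcm5 interaction held on leaving out array 1 of WT 24 h, array 1 of WT 0 h or array 2 of WT 0 h but on leaving out no other of the 8 arrays (1.71 to 1.97, adjusted p = 0.0505 to 0.0859). Without the first WT 0 h array it passed at 1.22, adjusted p = 0.0356. The mean licensing level was 10.70 and 10.61 at KO 24 h and 9.28 and 9.32 at KO 0 h, 10.29 and 10.06 at WT 24 h and 9.94 and 9.45 at WT 0 h. Without the first WT 0 h array 7 licensing genes passed, and over the 8 left-out arrays 3 to 17 did, with 6 to 16 polymerase genes. For genes whose WT 0 h arrays agree more closely, Mcm7 gave 0.91 ± 0.14 (SE, adjusted p = 0.00397) and Rpa1, a single-strand binding subunit, 0.93 ± 0.13 (SE, adjusted p = 0.00134).

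Other growth lists had fewer such genes. The interaction was higher for 7 of 17 nucleotide genes (2 to 13 over the left-out arrays), 9 of 17 repair genes (2 to 13), 7 of 22 cyclins and kinases (5 to 9), 7 of 24 ribosome biogenesis genes (1 to 16) and 6 of 18 chaperonins (3 to 10). Ccnd1 stood at 12.77 and 12.67 at WT 24 h, against 12.57 and 12.58 at WT 0 h. Its WT change was 0.14 ± 0.10 (SE, adjusted p = 0.344), and the interaction was 0.97 ± 0.15 (SE, adjusted p = 0.00269). Fkbp4 likewise changed by 0.03 ± 0.064 (SE, adjusted p = 0.784) in WT (interaction 0.81 ± 0.091 SE, adjusted p = 5.62e-04). In the mitotic list limma called 0 of 26, 6 had an unadjusted p under 0.05, near the 22.5% of all genes, and 10 were called without the second WT 0 h array, where the total was 2258 of 14737 genes and 1250 of these were higher. The list rose in WT as well, 23 of 26 with a median of 0.97. Its WT 0 h arrays differed from each other, at list means of 9.43 and 8.79. The median interaction of the list was 0.32, against -0.0029 over all genes. The 0 calls thus do not show an equal response.

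The 10 highest single genes in the interaction included several outside the cell cycle. Serpinb11, a serine protease inhibitor, read 9.13 and 9.29 in the KO 24 h uteri, against 8.63 and 8.43 in the KO 0 h uteri, and 9.04 and 8.91 at WT 24 h, against 10.76 and 10.93 at WT 0 h, an interaction of 2.55 ± 0.52 (SE, adjusted p = 0.0126) with a fall in WT. It did not hold on leaving out either array 2 of KO 24 h (2.47, adjusted p = 0.0509) or array 2 of WT 24 h (2.49, adjusted p = 0.051). The noradrenaline transporter Slc6a2 read 10.57 and 10.58 at KO 24 h, against 10.22 and 9.84 at KO 0 h, and 9.16 and 9.52 at WT 24 h, against 10.73 and 10.76 at WT 0 h (interaction 1.95 ± 0.25 SE, adjusted p = 0.00108). Its KO rise did not hold on leaving out any one of array 1 of KO 24 h (0.55, adjusted p = 0.0711), array 2 of KO 24 h (0.54, adjusted p = 0.0781) or array 2 of KO 0 h (0.35, adjusted p = 0.207), and its other probes changed by 0.074 to 0.18 in KO. Rad54b, of recombination, read 11.02 and 10.81 at KO 24 h, against 8.69 and 8.77 at KO 0 h, and 10.24 and 10.005 at WT 24 h, against 10.31 and 9.34 at WT 0 h (interaction 1.89 ± 0.30 SE, adjusted p = 0.00405). Without the first WT 0 h array, the high one, the Rad54b interaction was 1.41, adjusted p = 0.00198. Plat, tissue plasminogen activator, fell in both genotypes and less in KO, with changes of -1.10 (adjusted p = 0.00166) in KO and -2.74 (adjusted p = 3.20e-06) in WT (interaction 1.64 ± 0.34 SE, adjusted p = 0.0141). It did not hold on leaving out array 1 of WT 24 h (1.46, adjusted p = 0.0612). Its KO change was -0.70, adjusted p = 0.0336, without the second KO 24 h array, and its other probe changed by -0.064 in KO. Hsph1, a heat shock protein, read 11.75 and 12.73 at KO 24 h, against 11.43 and 11.09 at KO 0 h, with the second 24 h array high (interaction 1.60 ± 0.36 SE, adjusted p = 0.0181). Its KO rise did not hold on leaving out either array 2 of KO 24 h (0.49, adjusted p = 0.0911) or array 2 of KO 0 h (0.81, adjusted p = 0.0529), and its interaction held on leaving out array 1 of KO 24 h, array 1 of KO 0 h or array 2 of WT 0 h but on leaving out no other of the 8 arrays (1.11 to 1.62, adjusted p = 0.053 to 0.0728). Ung, Clspn, Mcm5 and the histones H2ac12 and H2ac15 completed the 10, at 1.54 to 1.86. The Clspn interaction did not hold on leaving out either array 1 of KO 24 h (1.43, adjusted p = 0.0656) or array 2 of WT 24 h (1.29, adjusted p = 0.0814), and its other probes changed by 0.37 to 2.18 in KO. The H2ac12 interaction held on leaving out array 2 of WT 0 h but on leaving out no other of the 8 arrays (1.13 to 2.01, adjusted p = 0.07 to 0.117), and so did H2ac15 (1.06 to 2.44 over the 8 arrays).

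**Figure D4:**
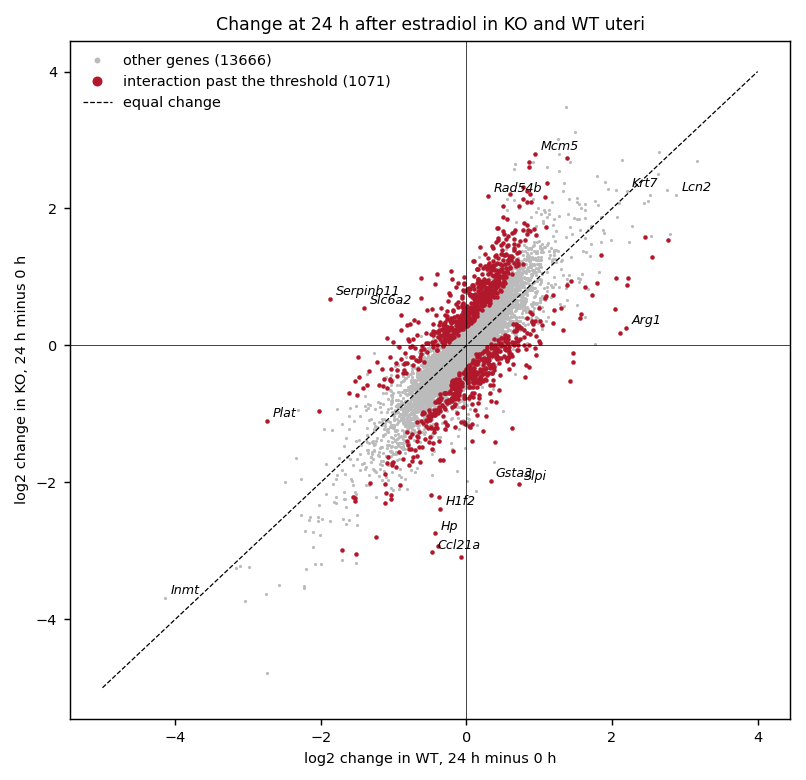
Log2 change at 24 h against 0 h in KO (vertical) and in WT (horizontal) for all 14737 genes, with the genes whose interaction passed in red and equal change as a dashed line. Mcm5 and Rad54b lie above the line, Ccl21a, Slpi and Hp below it, and Krt7 and Inmt close to it.

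Immune and epithelial products were among the 10 lowest. Ccl21a, Ccl21c and LOC100041504 carry near-identical sequences and read alike. Ccl21c stood at 10.44 and 9.79 in the KO 24 h uteri, against 13.15 and 13.27 in the KO 0 h uteri, and 12.63 and 12.42 at WT 24 h, against 12.42 and 12.78 at WT 0 h, an interaction of -3.02 ± 0.30 (SE, adjusted p = 2.40e-04), with a fall in KO and no change past the test in WT (-0.073 ± 0.21 SE, adjusted p = 0.847). The antiprotease Slpi read 8.57 and 8.64 at KO 24 h, against 9.38 and 11.87 at KO 0 h, and 10.04 and 9.57 at WT 24 h, against 9.10 and 9.07 at WT 0 h (interaction -2.74 ± 0.72 SE, adjusted p = 0.0367). Its second KO 0 h array was high, and its KO change of -2.02 was -0.78, adjusted p = 0.0165, without it and -3.27, adjusted p = 3.51e-06, without the first. Its interaction held on leaving out array 1 of KO 0 h, array 2 of KO 0 h or array 2 of WT 0 h but on leaving out no other of the 8 arrays (-2.98 to -2.51, adjusted p = 0.0802 to 0.126), and without the second KO 0 h array it was -1.50, adjusted p = 0.0257. Hp, haptoglobin, read 8.76 and 9.24 at KO 24 h, against 10.95 and 12.54 at KO 0 h, and 9.27 and 9.26 at WT 24 h, against 9.64 and 9.74 at WT 0 h (interaction -2.32 ± 0.60 SE, adjusted p = 0.0333). It held on leaving out array 1 of KO 0 h or array 2 of WT 0 h but on leaving out no other of the 8 arrays (-2.56 to -1.52, adjusted p = 0.0678 to 0.115). Hp lay higher on both KO 0 h arrays than on the WT 0 h arrays, and the genotypes lay closer at 24 h. H1f2 and Gsta3 fell in KO and changed by -0.36 ± 0.19 (SE, adjusted p = 0.155) and 0.33 ± 0.35 (SE, adjusted p = 0.536) in WT. Their interactions were -2.03 (adjusted p = 0.00122) and -2.31 (adjusted p = 0.0156). The Gsta3 interaction held on leaving out array 1 of KO 0 h, array 2 of WT 24 h or array 2 of WT 0 h but on leaving out no other of the 8 arrays (-2.35 to -2.10, adjusted p = 0.0515 to 0.0655). Arg1, the urea-cycle arginase, read 8.82 and 8.74 at KO 24 h, against 8.17 and 8.87 at KO 0 h, and 10.26 and 10.45 at WT 24 h, against 8.14 and 8.17 at WT 0 h, so WT rose and the KO change of 0.26 did not pass (interaction -1.94 ± 0.24 SE, adjusted p = 9.59e-04). Without the first KO 0 h array that change was -0.089, adjusted p = 0.692, and without the second 0.61, adjusted p = 0.00253, which passed. Scgb1c1 and Lrg1 changed by 0.17 and -0.52 in KO, neither past the test, and rose by 2.11 (adjusted p = 7.13e-05) and 1.43 (adjusted p = 8.54e-04) in WT. The Scgb1c1 interaction of -1.94 did not hold on leaving out array 2 of WT 24 h (-1.80, adjusted p = 0.0624), and that of Lrg1 was -1.94 ± 0.38 (SE, adjusted p = 0.0103). The KO change of Lrg1 was -1.03, adjusted p = 0.00287, without the first KO 0 h array.

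Several epithelial and mucosal genes rose in WT and did not pass the test in KO. The interaction was lower for 6 of 17 epithelial genes and higher for 1, against 3.15% lower over all genes, and for 2 to 7 lower over the left-out arrays. Prom1, a protein of apical protrusions, read 8.32 and 8.32 at KO 24 h, against 8.28 and 8.34 at KO 0 h, and 9.24 and 9.23 at WT 24 h, against 8.53 and 8.36 at WT 0 h (interaction -0.78 ± 0.11 SE, adjusted p = 0.00226, other probe -0.014 in KO). Cdh1 rose in WT by 0.57 (adjusted p = 3.95e-05), with an interaction of -0.48 (adjusted p = 0.0147) that did not hold on leaving out either array 1 of KO 24 h (-0.46, adjusted p = 0.0539) or array 1 of WT 24 h (-0.43, adjusted p = 0.0648). Pigr, which carries IgA across epithelium, read 8.17 and 8.29 at KO 24 h, against 8.14 and 8.24 at KO 0 h, and 9.76 and 9.40 at WT 24 h, against 8.76 and 8.37 at WT 0 h (interaction -0.98 ± 0.19 SE, adjusted p = 0.00989). Cxcl17, a mucosal chemokine, read 8.84 and 8.82 at KO 24 h, against 9.16 and 8.97 at KO 0 h, and 10.24 and 10.13 at WT 24 h, against 8.73 and 8.72 at WT 0 h (interaction -1.70 ± 0.15 SE, adjusted p = 2.40e-04). Wnt7a, made by the epithelium, went the other way, with 10.20 and 10.14 at KO 24 h, against 10.51 and 10.32 at KO 0 h, and 9.61 and 9.80 at WT 24 h, against 10.78 and 11.07 at WT 0 h (interaction 0.97 ± 0.18 SE, adjusted p = 0.0071). Claudin Cldn4 fell in KO and changed by 0.031 ± 0.13 (SE, adjusted p = 0.896) in WT (interaction -1.21 ± 0.18 SE, adjusted p = 0.00269).

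A few signalling genes also differed. Nr2f2 (COUP-TFII), a stromal progesterone mediator, read 10.84 and 10.75 at KO 24 h, against 10.53 and 10.31 at KO 0 h, and 9.88 and 9.87 at WT 24 h, against 10.53 and 10.66 at WT 0 h (interaction 1.09 ± 0.13 SE, adjusted p = 8.79e-04), though its other probes changed by -0.41 to 0.098 in KO and its KO rise did not hold on leaving out array 2 of KO 0 h (0.27, adjusted p = 0.0668). The Wnt inhibitor Wif1 read 8.33 and 8.22 at KO 24 h, against 8.52 and 8.38 at KO 0 h, and 8.27 and 8.47 at WT 24 h, against 9.83 and 9.89 at WT 0 h (interaction 1.32 ± 0.27 SE, adjusted p = 0.0126). It did not hold on leaving out array 1 of WT 24 h (1.22, adjusted p = 0.0523). Lgr5, a receptor for R-spondins, read 9.03 and 8.79 at KO 24 h, against 9.22 and 9.0 at KO 0 h, and 8.33 and 8.27 at WT 24 h, against 9.10 and 9.28 at WT 0 h (interaction 0.70 ± 0.14 SE, adjusted p = 0.0112). It did not hold on leaving out any one of array 1 of KO 24 h (0.58, adjusted p = 0.0501), array 2 of KO 0 h (0.59, adjusted p = 0.0515) or array 2 of WT 24 h (0.67, adjusted p = 0.0507). All 3 fell in WT, and the KO changes of Wif1 and Lgr5 did not pass, at -0.18 ± 0.19 (SE, adjusted p = 0.524) and -0.20 ± 0.099 (SE, adjusted p = 0.126). That of Lgr5 passed without the first KO 24 h array (-0.32, adjusted p = 0.0367) and without the second KO 0 h array (-0.31, adjusted p = 0.0476). Ccn2 fell in both, and by more in KO (interaction -1.56 ± 0.26 SE, adjusted p = 0.00442), as did Sesn1 (-0.90 ± 0.17 SE, adjusted p = 0.00818). For Wif1 the genotypes lay apart at 0 h, where KO was already near the array median of 8.20, and close at 24 h.

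What came after 6 h was read from KO 24 h against KO 6 h, which shares the 24 h arrays with the main comparison. There 38.3% of genes passed, 19.7% higher and 18.6% lower. A called change of at least 2-fold was found for 3.84%. The 10 highest were Pbk, Pclaf, Uhrf1, Prc1, Tk1 and the histones H2ac24, H2ac7, H2ac22, H2ac20 and H2ac15. Against KO 0 h the brightest probe of H2ac20 rose by 2.13, while its other probe changed by -0.27. H2ac24 stood at 14.86 and 14.65 at KO 24 h, against 11.67 and 10.86 at KO 6 h, a rise of 3.49 ± 0.48 (SE, adjusted p = 5.67e-05). Pbk stood at 12.03 and 11.85 at KO 24 h, against 9.0 and 8.27 at KO 6 h, a rise of 3.31 ± 0.40 (SE, adjusted p = 1.77e-05). The licensing list had a median change of 0.055 at 3 h, 0.052 at 6 h and 1.28 at 24 h, each against KO 0 h. From 6 h to 24 h 18 of 19 licensing and 23 of 26 mitotic genes rose, and the same numbers did when each of the 4 arrays was left out in turn.

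**Figure D5:**
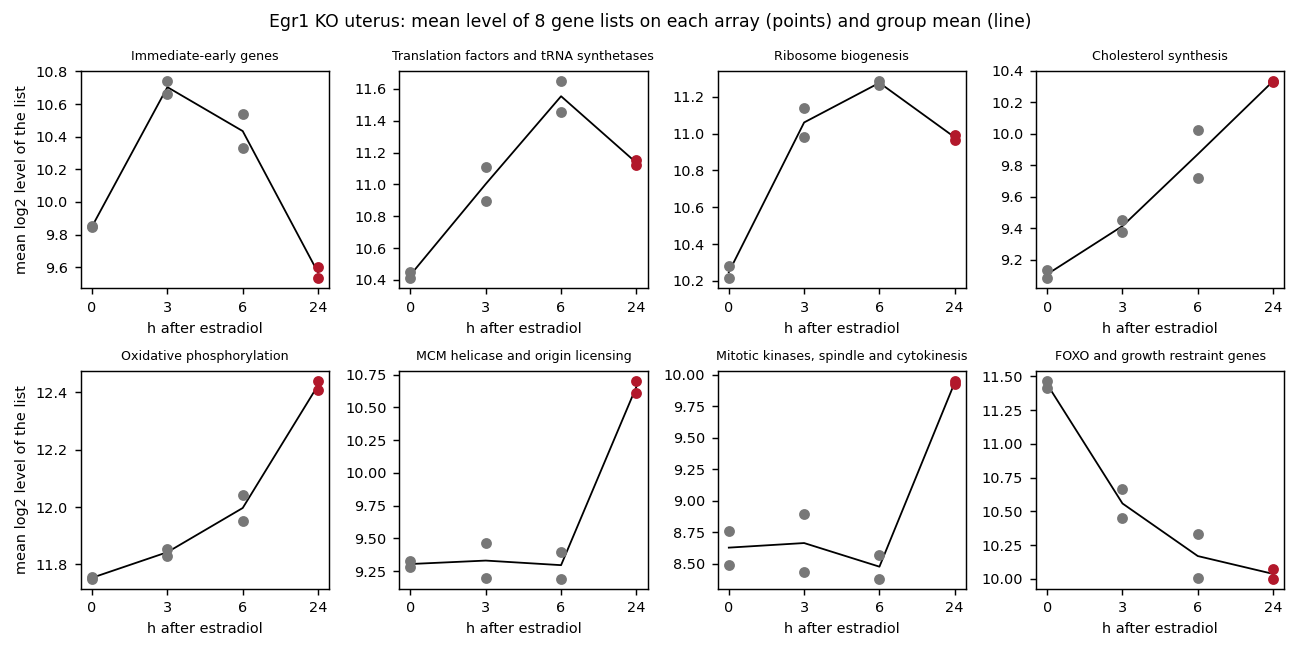
Mean log2 level of 8 gene lists in KO uteri against hours after E2 (0, 3, 6 and 24), 1 point per array and a line through the group means, with 24 h in red; the time axis is not to scale. Immediate-early genes peak at 3 h, translation and ribosome biogenesis at 6 h, and the licensing and mitotic lists leave their 0 h level between 6 h and 24 h.

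Other lists had their peak before 24 h. Ribosome biogenesis changed by a median of 0.87 at 3 h, 1.15 at 6 h and 0.76 at 24 h. From 6 h to 24 h 12 of its genes fell (8 to 11 over the left-out arrays), as did 14 of 21 translation genes (9 to 14). Immediate-early genes gave 23 falls and 0 rises from 6 h to 24 h (median -0.77, 20 to 22 falls over the left-out arrays). The 10 lowest single genes were Slc6a13, Tmem200a, Col8a2, Adamts4, Errfi1, Chac1, Phf21b, Ccl21a, Ccl21c and Socs3. Against KO 0 h the brightest probe of Col8a2 changed by -0.80 and its other probes by -0.11 to -0.069. Slc6a13, a GABA and taurine transporter, stood at 8.78 and 8.82 at KO 24 h, against 12.07 and 12.02 at KO 6 h, a change of -3.24 ± 0.16 (SE, adjusted p = 2.00e-08), and at 9.13 and 8.66 at KO 0 h. Socs3, a feedback inhibitor of cytokine signalling, stood at 9.92 and 9.82 at KO 24 h, against 11.82 and 12.66 at KO 6 h (-2.36 ± 0.19 SE, adjusted p = 8.50e-07). The aggrecanase Adamts4 stood at 8.92 and 8.87 at KO 24 h, against 11.51 and 11.86 at KO 6 h (-2.80 ± 0.16 SE, adjusted p = 9.86e-08). Socs3 had stood at 9.92 and 9.79 and Adamts4 at 9.07 and 8.60 at KO 0 h, and none of the 3 passed the test at 24 h against 0 h. Errfi1, an EGF receptor inhibitor, lay under its 0 h level, at 11.24 and 10.96 at KO 24 h, against 12.60 and 12.56 at KO 0 h (-1.48 ± 0.12 SE, adjusted p = 5.54e-07).

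Respiratory chain and sterol genes were higher again at 24 h than at 6 h. Oxidative phosphorylation genes gave 18 rises and 0 falls from 6 h to 24 h (median 0.41, 15 to 17 rises over the left-out arrays), and cholesterol genes 10 rises and 0 falls (median 0.40, 7 to 13). The polyamine list moved both ways, with 5 rises and 4 falls among 13 (median 0.049). Fdps stood at 13.11 and 13.11 at KO 24 h, against 12.05 and 11.35 at KO 6 h, a rise of 1.41 ± 0.32 (SE, adjusted p = 0.0029). Proteasome genes gave 8 rises, and 1 without the second KO 24 h array or 1 without the second KO 6 h array. The FOXO list was lower at each time, with medians of -0.88 at 3 h, -1.22 at 6 h and -1.37 at 24 h. Dbp was lower at 6 h than at 0 h or 24 h and rose from there, at 12.82 and 12.81 at KO 24 h, against 10.53 and 10.62 at KO 6 h (2.24 ± 0.22 SE, adjusted p = 3.91e-06). Col1a1 stood at 12.96 and 13.50 at KO 24 h, against 10.95 and 10.16 at KO 6 h, a rise of 2.68 ± 0.50 (SE, adjusted p = 6.75e-04), with both 6 h arrays under both 24 h arrays.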

How the data were processed

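Total RNA of mouse uterus was labelled with biotin by the standard Illumina protocol and hybridised to expression bead arrays, per the labels' protocols, with BeadStudio named in the submitters' processing notes (with no version). The authors deposited normalized log2 intensities for 45281 probes. The columns have identical quantiles, their median 8.20 and their range 7.39 to 15.94, so the deposited log2 values are quantile normalized. For other steps, background correction among them, no source used here gives a setting. Arrays carry no read depth, and their number limits the precision.

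Probes were named from the platform annotation (34885 with 1 symbol, 18 with several and 10378 not listed, neither of which was used), and 34807 matched RefSeq by Entrez number. A probe was kept if it exceeded the array median on at least 2 of 17 arrays. The probe with the highest mean stood for its gene, giving 14737 genes. limma 3.58.1 in R 4.3.3 fitted the 8 group means to all 17 arrays, with moderated standard errors (lmFit, eBayes), contrasts and Benjamini-Hochberg adjustment over all genes, two-sided at 0.05. The fit was tested on simulated arrays with known changes.

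The 57 gene lists and the members shown were chosen with earlier results of these data known, and they are described by counts and medians, with no set test. Named genes are the 15 largest rises and 15 largest falls past the threshold with no overlap between the arrays, the 10 highest and 10 lowest in the interaction and against 6 h, the 6 most changed members per list with those whose interaction passed, and Egr1. Alternatives were the filter, the mean of all probes, centring, cyclic loess, an intensity trend, array weights, the replicate block, fewer groups in the fit and each array left out. Refits for single genes and lists in the interaction and against 6 h were added after the data were seen. Promoter windows are RefSeq's (GRCm38.p6), with 11820 of 14737 genes matched by symbol, and gene models of other builds were not used. A gene counted once, as holding a word if any of its windows did, so shares of windows are shares of genes.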

Additional observations from a re-analysis of the deposited data

Results flagged for a closer look

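The change at 24 h differed between KO and WT, by the test of the interaction itself, for 1071 genes, of which 77 are named above. Each value is a difference of log2 changes, KO minus WT. It was higher by 2.55 for Serpinb11, 1.95 for Slc6a2, 1.89 for Rad54b, 1.86 for Mcm5, 1.82 for H2ac12, 1.75 for H2ac15, 1.64 for Plat, 1.61 for Ung and 1.60 for Hsph1. Further higher values were 1.54 for Clspn, 1.54 for E2f1, 1.42 for Cdc6, 1.37 for Rad54l, 1.35 for Sprr2e, 1.34 for Fen1, 1.32 for Chaf1b, 1.32 for Wif1 and 1.30 for Dnmt1. There followed 1.29 for Esco2, 1.27 for Tyms, 1.27 for Mcm2, 1.14 for Cdc45, 1.12 for Cdt1, 1.12 for Stip1, 1.09 for Nr2f2, 1.03 for Pold1 and 0.99 for Cdk4. Beyond these came 0.97 for Wnt7a, 0.97 for Ccnd1, 0.93 for Rpa1, 0.93 for Ncaph, 0.91 for Gins1, 0.91 for Mcm4, 0.91 for Mcm7, 0.89 for Mthfd1 and 0.84 for Gins2. Smaller ones were 0.83 for Hspe1, 0.81 for Fkbp4, 0.81 for Pole, 0.79 for Pgr, 0.77 for Pcna, 0.74 for Rrm2, 0.70 for Lgr5, 0.68 for Gart and 0.61 for Igfbp4. Last came 0.56 for Mrto4, 0.48 for Cdkn1b, 0.48 for Gins4 and 0.40 for Chek1. It was lower, with -3.02 for Ccl21c, -2.74 for Slpi, -2.55 for Ccl21a, -2.55 for LOC100041504, -2.32 for Hp, -2.31 for Gsta3, -2.03 for H1f2, -1.94 for Lrg1 and -1.94 for Scgb1c1. Further lower values were -1.94 for Arg1, -1.70 for Cxcl17, -1.56 for Ccn2, -1.26 for Aoc1, -1.21 for Cldn4, -1.18 for C2, -1.03 for Cd14, -0.98 for Pigr and -0.96 for Trp53inp1. There followed -0.94 for Cyp1b1, -0.90 for Sesn1, -0.87 for Errfi1, -0.83 for Cldn3, -0.78 for Prom1, -0.76 for Timp3, -0.71 for Cx3cl1, -0.70 for Rspo3 and -0.48 for Cdh1. Beyond these came -0.31 for Epcam. The second WT 0 h array bears on the total, which was 2258 without it and 375 to 718 without any other single array. Calls of several genes listed here also ended when 1 array was left out, as the counts of the licensing and polymerase lists above show.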

How the results depend on the processing

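Over the alternatives run, the KO 24 h against KO 0 h count stayed between 5528 and 7731 genes, the count changed at least 2-fold between 665 and 1014, and the count against KO 6 h between 4325 and 5702, each within 1.5 times its value of 6730, 979 and 5643. The interaction count of 1071 moved further when single arrays were left out, to 375 at the lowest, without the second WT 24 h array, and 2258 at the highest, without the second WT 0 h array. With the other alternatives it was 719 to 1594. With the replicate number as a block the counts were 6673, 979, 1028 and 5607. The KO 3 h arrays carry the letters B and C and were numbered 1 and 2, and with the letters of the titles as the block, chosen after the data were seen, the counts were 6663, 979, 1021 and 5611. The numbers do not pair the samples by label, and the deviations of same-numbered arrays correlated at 0.12 for KO 24 h with KO 0 h, -0.04 for KO 24 h with KO 6 h and 0.085 for WT 24 h with WT 0 h. No KO change that passed the test, among the 439 genes the naming rule chose, turned sign under these alternatives. The changes of 14 that did not pass did, Arg1, Cdkn1b, Pigr and Prom1 among them. Over all genes, the mean of all probes called 14 of the 6730 genes in the opposite direction against KO 0 h and 6138 in the same. Against KO 6 h it called 2 of the 5643 in the opposite direction and 5112 in the same. For most genes whose levels are given above, the KO change passed with each array left out, with exceptions such as Hsph1, Slc6a2, Nr2f2 and S100a8. Other members of the immune lists that the naming rule chose also lost their calls, as the list counts above show. A fit of the compared groups alone ended the interaction calls of Mcm5, H2ac12, H2ac15, Hsph1, Clspn, Slpi and Hp among those given in the comparison and the KO calls of Slpi and S100a8. The intensity trend with robust moderation ended the interaction calls of Mcm5, H2ac12, H2ac15, Slpi and Hp and the KO call of S100a8. The fit of the 8 KO arrays ended the KO calls of Slc6a2 and S100a8, the mean of all probes that of Nr2f2, and the replicate block the interaction call of Slpi. The causes were not tested. The granulocyte list had no member under the filter at the 75th percentile. Another background correction was not run, because only normalized values are used here. Array signal limits the lowest genes: 1298 of those tested lay under the array median on all 4 KO arrays, where a difference is compressed. The number of arrays, 2 in each group compared, limits the precision.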

Other observations

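Before any E2 the KO and WT arrays already differed in some genes named above, which a change from 0 h does not show. Wif1 lay lower and Hp higher on both KO 0 h arrays than on the WT 0 h arrays, at the levels given above. Dlk1 was higher at KO 0 h by 3.55 ± 0.46 (SE, adjusted p = 0.0011), and at KO 24 h by 1.84 ± 0.46 (SE, adjusted p = 0.0237) over WT 24 h. Serpinb11 stood at 8.63 and 8.43 at KO 0 h and 10.76 and 10.93 at WT 0 h, a difference of -2.32 ± 0.37 (SE, adjusted p = 0.00361). Rad54b stood at 8.69 and 8.77 at KO 0 h and 10.31 and 9.34 at WT 0 h (-1.09 ± 0.21 SE, adjusted p = 0.0111). Without the first WT 0 h array the Rad54b difference was -0.61, adjusted p = 0.0436, and without either KO 0 h array it did not pass (-1.05, adjusted p = 0.0637 and -1.14, adjusted p = 0.0647). Mcm5 stood at 9.93 and 10.15 at KO 0 h and 11.72 and 10.44 at WT 0 h (-1.04 ± 0.30 SE, adjusted p = 0.0697), which did not pass. Without the first WT 0 h array the Mcm5 difference was -0.40, adjusted p = 0.479, and without the second it was -1.68, adjusted p = 8.99e-04, which passed. The licensing list had a median difference of -0.37 at 0 h, KO minus WT, against -0.0028 over all genes, and -0.15 without the first WT 0 h array, the high one, or -0.64 without the second.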
